A study of Homo sapiens with 6 samples.

Results

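Dickkopf (DKK) proteins and the membrane receptors that they act through were examined in DLD-1 cells with and without a DKK1 transgene. The members were 5 ligand genes (DKK1, DKK2, DKK3, DKK4 and the related DKKL1) and 4 receptor genes (LRP5, LRP6, KREMEN1 and KREMEN2). Every probe set of the array that the platform annotation pairs with one of these symbols alone was taken, which gave 10 of the 32321 probe sets, or 9 of 18404 named genes. DKK3 was covered by 2 probe sets and each other gene by 1.

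DLD-1 is an APC-mutant line from a human colorectal adenocarcinoma, and the study describes it as lacking endogenous DKK1 expression. Cells transduced with an inducible lentivirus that carries V5-tagged DKK1 followed by an eGFP reporter (DLD-1/DKK1) were set against cells that received the vector with no DKK1 (DLD-1/Mock). Both had been kept in doxycycline for a day before RNA was isolated, and each was measured on 3 arrays from 3 dishes. The sources used here do not say whether single clones were picked. The labels give the doxycycline as 10 mg/ml, whereas the methods of the study give that figure in micrograms per ml.

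In canonical Wnt signalling a Wnt protein joins a Frizzled receptor to the co-receptor LRP5 or LRP6, and this spares beta-catenin from the destruction complex to which APC belongs. DKK1 binds LRP5 and LRP6 and keeps them from the Wnt-Frizzled pair, and the Kremen proteins hold DKK1 and LRP6 together and help to remove the complex from the cell surface. APC acts inside the cell, downstream of these receptors, so an APC-mutant line can keep beta-catenin active without them. DKK1 and DKK4 are themselves known beta-catenin targets, which makes them part of a feedback loop in other cells.

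All values are log2 expression as the authors normalised it, so that a difference of 1 is a factor of 2 in array signal. Of the colorectal epithelium markers, 11 of 12 probe sets lay above the 95th percentile of olfactory receptor genes in DLD-1/Mock, from 6.49 (GPA33) to 12.94 (KRT8), and the differentiation keratin KRT20 did not (5.51). The same held for 4 of 8 fibroblast, 1 of 6 endothelial and 3 of 7 leukocyte probe sets, the brightest being COL1A1 (7.52), CDH5 (6.19) and CD68 (7.48). None of these lists held a probe set past an adjusted p of 0.05 with limma. An unadjusted p under 0.05 was found for 2 leukocyte probe sets, against 9.23% of all probe sets. They were CD68 (-0.26) and, named after its values were seen, CD14 (-0.27), both lower in DLD-1/DKK1. Without Mock 2 these were -0.23 and -0.21. Groups did not overlap for these 2 of 7 leukocyte probe sets, 1 of 8 fibroblast, 2 of 6 endothelial and 7 of 12 colorectal epithelium probe sets. The epithelial ones ran both ways, and the share over all probe sets was 16.5% in either direction. All arrays came from dishes of this cultured line, and the source of these marker signals was not tested. The array Mock 2 stood apart, with correlations across probe sets of at most 0.9969 to any other array, against at least 0.9973 for pairs of the other 5. Some of the results below, but not all, are therefore also given without it.

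DKK1 was the single member that passed the test between the groups. In DLD-1/Mock its values were 5.15, 5.74 and 5.01, and in DLD-1/DKK1 they were 12.30, 12.38 and 12.36. Every DLD-1/DKK1 array lay far above every DLD-1/Mock array, and the difference was the largest of all probe sets, the next being 1.46 in size. The 3 transgenic dishes spanned 0.07, whereas the 3 Mock dishes spanned 0.72, with Mock 2 the highest of them. The log2 fold change was 7.05 (SE 0.18; adjusted p = 0.00015 with limma), and 7.27 without Mock 2 (limma adjusted p = 2.68e-06). Of all probe sets, 0.0866% passed an adjusted p of 0.05, and 0.0371% passed as higher in DLD-1/DKK1. In RNA of whole dishes, more expressing cells and more transcript in each cell cannot be told apart.

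The DLD-1/DKK1 signal of DKK1 stood at percentile 97.5 of all probe sets, with 798 brighter. The DLD-1/Mock signal lay at percentile 28.5. As the table holds no detection calls, each member was also placed among 350 probe sets for olfactory receptors, genes that a colorectal line is not known to use. These had a median of 4.84 in DLD-1/Mock, and 95% of them lay under 6.09. DKK1 in DLD-1/Mock, at 5.30 ± 0.38 (SD, n = 3), was inside this range at percentile 79.7 of the olfactory receptors, and in DLD-1/DKK1 it exceeded all 350. Signal above background was therefore not shown for DKK1 in DLD-1/Mock, and the fold is a ratio of array signals and not of transcripts.

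The probe set cannot tell the DKK1 locus of the cell from the viral copy. The stretch before the start of the chromosomal gene is printed to show what stands ahead of the DKK1 locus, whose probe set was within the olfactory range in DLD-1/Mock. It covers 250 bases at chr10:52314031-52314280 (GRCh38.p14, plus strand, RefSeq). Capitals mark a match to the searched forms of the core letters that TCF factors, the DNA-binding partners of beta-catenin, recognise.
DKK1 upstream: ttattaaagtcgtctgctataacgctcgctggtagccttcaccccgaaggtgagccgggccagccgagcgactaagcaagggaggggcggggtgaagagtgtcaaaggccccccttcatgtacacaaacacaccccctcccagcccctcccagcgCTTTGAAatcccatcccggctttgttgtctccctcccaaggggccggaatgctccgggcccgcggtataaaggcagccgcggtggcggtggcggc
The letters searched were CTTTGAT and CTTTGAA on both strands, which share their first letters and so cannot both match at one place. Other forms of the core letters were not searched and stay in lower case. The match begins 95 bases before the start. Of 35116 promoter windows of 300 bases (250 before and 50 after the start), 6.86% held at least 1 match. Among the members, 3 had a window in the table (DKK1, DKKL1 and LRP5), and the DKK1 window alone held a match. A match describes the letters and is not a measured binding site.

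**Figure D1:**
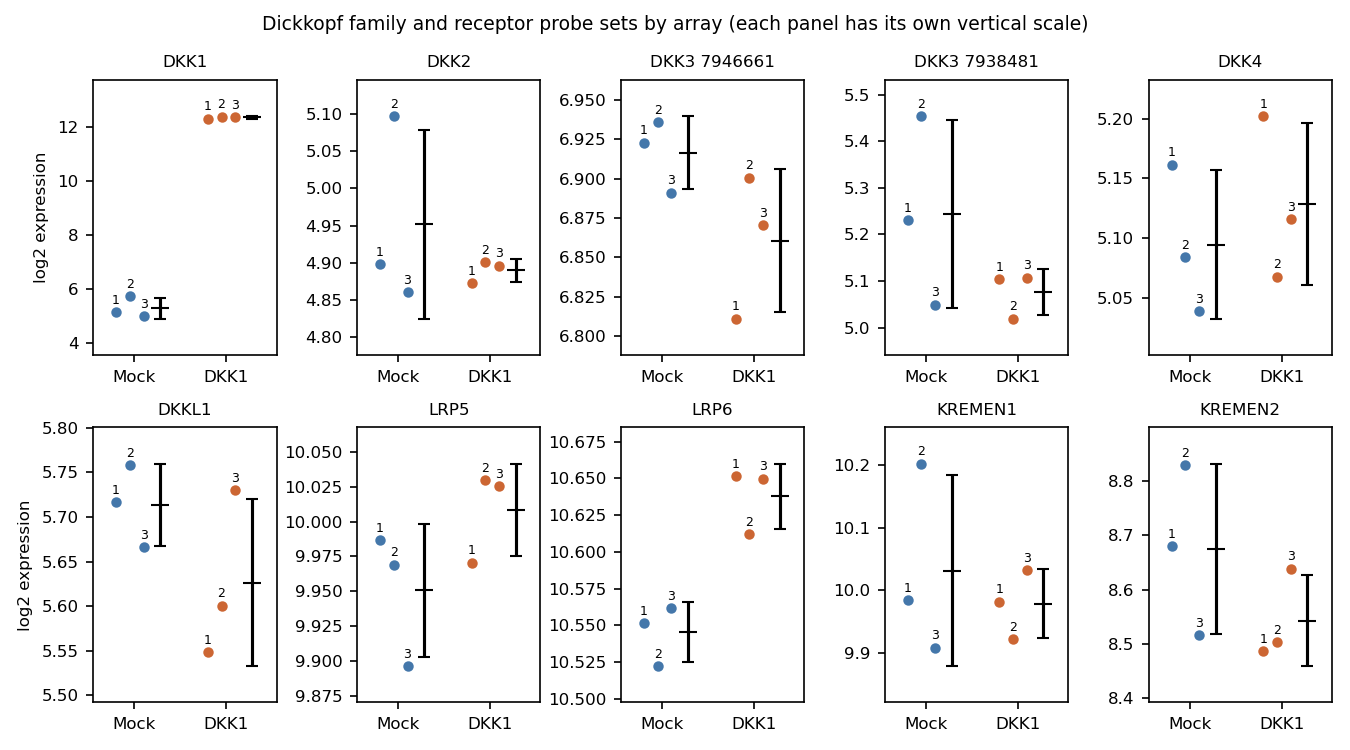
Log2 expression (vertical axis, a scale of its own in each panel) of the 10 probe sets in both groups (horizontal axis). Points are arrays, numbered by dish, and the bar and whiskers beside them show their mean ± SD (n = 3). DKK1 rises from 5.30 to 12.35, and LRP6 is the other probe set whose groups do not overlap.

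Among the other Dickkopf genes, DKK2, DKK4 and DKKL1 stayed dim in both groups, whereas the probe sets of DKK3 differed in brightness. DKK2, which binds LRP6 and can inhibit or activate the pathway depending on the cell, had 4.90, 5.10 and 4.86 in DLD-1/Mock and 4.87, 4.90 and 4.90 in DLD-1/DKK1. The groups overlapped, with Mock 2 above all other arrays. Its log2 fold change was -0.06 (95% interval -0.22 to 0.10) and turned to 0.01 without Mock 2, while leaving out Mock 3 gave -0.11. In DLD-1/Mock it lay at percentile 62.0 of the olfactory receptors.

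DKK4, an inhibitor of LRP6 like DKK1, had 5.16, 5.08 and 5.04 in DLD-1/Mock against 5.20, 5.07 and 5.12 in DLD-1/DKK1. These values interleaved, and the mean difference was 0.03 (95% interval -0.10 to 0.16). Leaving out an array moved it between -0.0027 (without the first DLD-1/DKK1 array) and 0.07 (without Mock 1). The DKK4 signal was at percentile 70.3 of the olfactory receptors in DLD-1/Mock and at 73.1 in DLD-1/DKK1, so that this target of beta-catenin was not seen above the background range in either group of this APC-mutant line.

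DKKL1, a relative known for its expression in the testis, had 5.72, 5.76 and 5.67 in DLD-1/Mock and 5.55, 5.60 and 5.73 in DLD-1/DKK1. The third DLD-1/DKK1 array fell among the Mock arrays while the other two lay below them. The log2 fold change was -0.09 (95% interval -0.23 to 0.05). With all arrays its unadjusted p was 0.183 in limma. The value was -0.05 without the first DLD-1/DKK1 array and -0.07 without Mock 2. Without the third DLD-1/DKK1 array it was -0.14 (unadjusted p = 0.0419, adjusted p = 0.538 with limma), the only left-out array with an unadjusted p under 0.05. Both group means lay near percentile 89 of the olfactory receptors (89.4 and 89.1).

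DKK3, the most divergent of the numbered Dickkopf proteins, does not act on LRP5 and LRP6 as DKK1 does. Its probe set 7946661, the one annotated with the RefSeq transcripts, gave 6.92, 6.94 and 6.89 in DLD-1/Mock and 6.81, 6.90 and 6.87 in DLD-1/DKK1. It was the single Dickkopf probe set besides the transgene to stand above 95% of the olfactory receptors, at percentile 98.9 in both groups. The groups overlapped and the log2 fold change was -0.06 (95% interval -0.16 to 0.05), from -0.08 to -0.03 with an array left out and -0.05 without Mock 2. The further probe set, 7938481, shares no sequence record with the former in the annotation and carries no RefSeq transcript, so it is uncertain whether it reports DKK3. Its values were 5.23, 5.45 and 5.05 in DLD-1/Mock and 5.10, 5.02 and 5.11 in DLD-1/DKK1. The log2 fold change was -0.17 (95% interval -0.41 to 0.07, unadjusted p = 0.142 with limma). It was -0.06 without Mock 2 and -0.27 without Mock 3 (unadjusted p = 0.0174, adjusted p = 0.492 with limma). No other left-out array gave an unadjusted p under 0.05 for it.

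**Figure D2:**
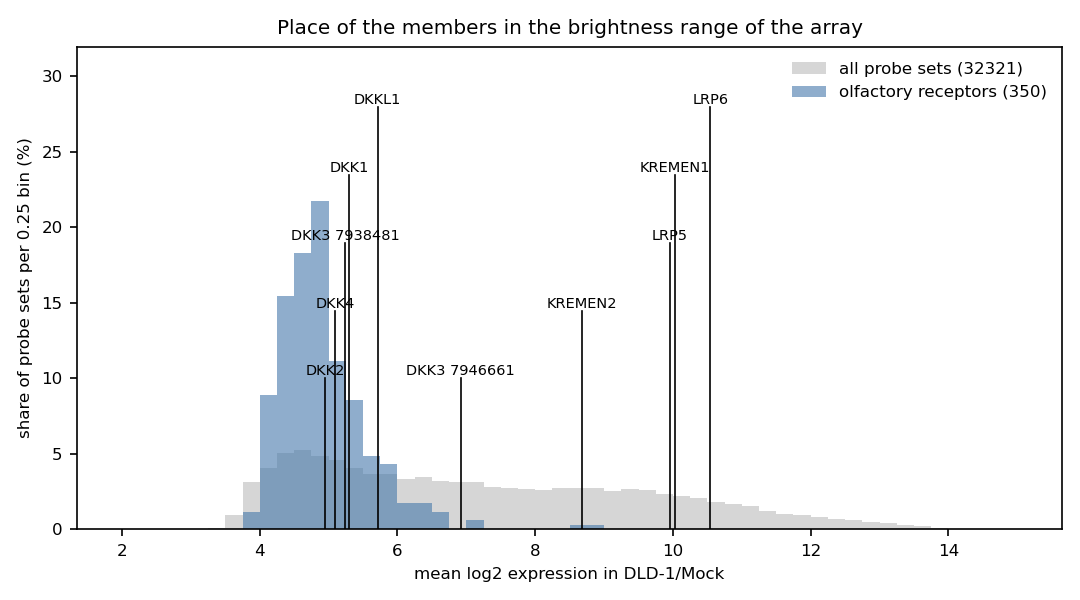
Share of probe sets (vertical axis, percent per bin of 0.25) by mean log2 expression in DLD-1/Mock (horizontal axis) for all probe sets and for olfactory receptors, with a line at each member; line heights carry no value. DKK2, DKK4, DKK1, DKKL1 and the DKK3 probe set 7938481 lie within the olfactory receptor range, and LRP5, LRP6, KREMEN1, KREMEN2 and the other DKK3 probe set lie above 95% of it.

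All 4 receptor genes gave signals above this range. In DLD-1/Mock LRP5, LRP6 and KREMEN1 each stood above all 350 olfactory receptor probe sets, and KREMEN2 lay at percentile 99.4 of them. Brightness depends on the probes of each set, so these positions do not rank the receptors by transcript number.

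LRP6, the co-receptor most closely tied to DKK1 action, had 10.55, 10.52 and 10.56 in DLD-1/Mock and 10.65, 10.61 and 10.65 in DLD-1/DKK1. Every DLD-1/DKK1 array was above every DLD-1/Mock array, yet the step was small. The log2 fold change was 0.09 (SE 0.04), or 6.6% with a 95% interval of 0.1% to 13.5%, and it did not pass (unadjusted p = 0.0462, adjusted p = 0.534 with limma). Groups that do not overlap were found for 16.5% of all probe sets, and an unadjusted p under 0.05 for 9.23%, so 1 such probe set among the 9 other than DKK1 is near the background. Leaving out an array moved the value between 0.08 and 0.11, and the unadjusted p was then 0.0644 to 0.123 in limma. The exact permutation p, two-sided, was 0.1, which is as small as 3 arrays against 3 allow.

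LRP5, its close relative, had 9.99, 9.97 and 9.90 in DLD-1/Mock and 9.97, 10.03 and 10.03 in DLD-1/DKK1. The first DLD-1/DKK1 array fell among the Mock arrays and the other two lay above them. The log2 fold change of LRP5 was 0.06 (95% interval -0.05 to 0.16; limma adjusted p = 0.689), and 0.03 without Mock 3. The log2 signal of LRP6 minus that of LRP5 within each array averaged 0.59 ± 0.06 (SD, n = 3) in Mock cells, compared with 0.63 ± 0.05 (SD, n = 3) with the transgene. This contrast, which asks if the co-receptors changed unequally, differed by 0.03 between the groups (two-sided exact permutation p = 0.5).

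KREMEN1, a transmembrane receptor of DKK1, had 9.98, 10.20 and 9.91 in DLD-1/Mock and 9.98, 9.92 and 10.03 in DLD-1/DKK1. Mock 2 was the highest of all 6 arrays and the others interleaved. The log2 fold change was -0.05 (95% interval -0.25 to 0.14; limma adjusted p = 0.846), and it was 0.03 without Mock 2, -0.11 without Mock 3 and -0.02 without the second DLD-1/DKK1 array.

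KREMEN2, the paralogue of KREMEN1 with the same role, had 8.68, 8.83 and 8.52 in DLD-1/Mock and 8.49, 8.50 and 8.64 in DLD-1/DKK1. Again Mock 2 was highest, and the groups overlapped. The log2 fold change was -0.13 (95% interval -0.34 to 0.08; limma adjusted p = 0.655), and it was -0.05 when Mock 2 was left out and -0.21 when Mock 3 was (unadjusted p = 0.0323 with limma). Within arrays, KREMEN1 minus KREMEN2 averaged 1.36 ± 0.05 (SD, n = 3) in Mock cells, compared with 1.44 ± 0.05 (SD, n = 3) with the transgene, a difference of 0.08 (two-sided exact permutation p = 0.1, the smallest possible). The highest DLD-1/Mock array and the lowest DLD-1/DKK1 array of this contrast were 1.3935 and 1.3936, and with cyclic loess the exact permutation p was 0.2.

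**Figure D3:**
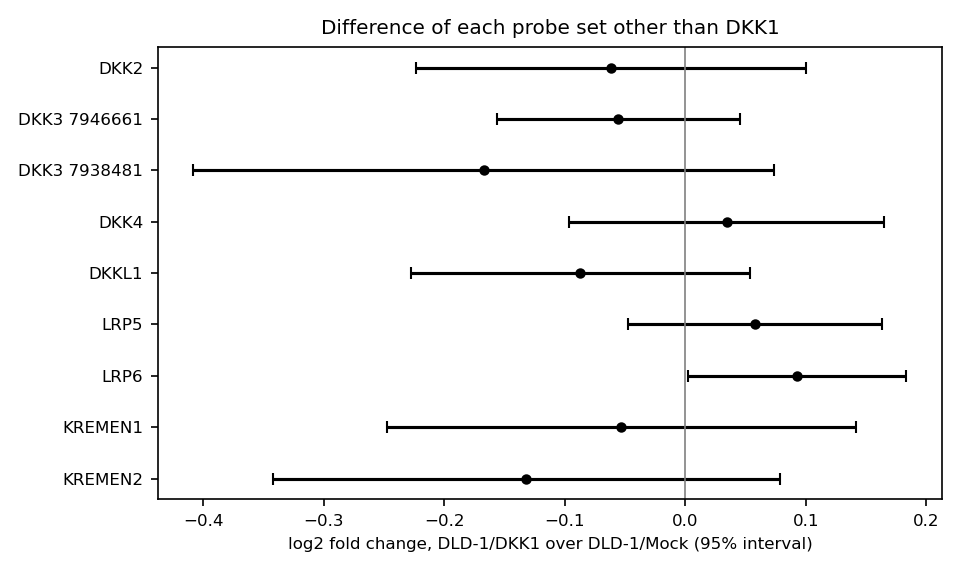
Horizontal axis, log2 fold change in the presence of the transgene for the 9 probe sets other than DKK1, each point being an estimate by limma whose whiskers span 95% (3 arrays per group). The estimates run from -0.17 for the DKK3 probe set 7938481 to 0.09 for LRP6, and the LRP6 interval alone leaves out 0.

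Over the 9 probe sets other than DKK1, 0 passed with limma over the whole table, 1 (LRP6) had an unadjusted p under 0.05, and the adjusted p ran from 0.534 to 0.855. On the values as deposited, the 95% intervals reached from 24.6% lower (the DKK3 probe set 7938481) to 13.5% higher (LRP6). Larger changes in signal were outside these intervals. For the dim genes these limits apply to the array signal, which close to background can change less than the transcript. Of the 9, 6 were below 0, with a median log2 fold change of -0.06, and over all probe sets 53.1% were below 0, with a median of -0.01. The array medians were 6.82 to 6.86 in DLD-1/Mock and 6.76 to 6.81 in DLD-1/DKK1. Median centring moved every member upward and kept each sign, with KREMEN1 at -0.0007, LRP5 at 0.11 and LRP6 at 0.15. Mock 2 was the highest Mock array in 7 of the 10 members and in 40.3% of all probe sets, and it exceeded the mean of the other Mock arrays by a median of 0.05 in the olfactory receptors and of 0.0048 in all probe sets.

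Around the members, 65 other genes of the receptor level and its regulators were measured, with 1 probe set each. None passed an adjusted p of 0.05 in limma, 7 had an unadjusted p under 0.05 (10.8%, against 9.23% of all probe sets), and the median log2 fold change was 0.00. Wnt antagonists outside the Dickkopf family numbered 12, of which 2 were above 0 and 10 below. NOTUM, an enzyme that removes the lipid of Wnt proteins, had the lowest p of them (log2 fold change -0.23, SE 0.07, limma adjusted p = 0.466). Without Mock 2 its log2 fold change was -0.16.

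The 9 R-spondin ligands, their receptors and the ubiquitin ligases that they restrain had a median of -0.01. LGR4 and LGR5, both receptors of R-spondins, had values of opposite sign, 0.13 (SE 0.05) and -0.14 (SE 0.04), with limma adjusted p values of 0.512 and 0.482. Among the 10 Frizzled receptors the median was -0.01. FZD3 had 0.21 (SE 0.08, limma adjusted p = 0.524) with overlapping groups, and 0.15 without Mock 2.

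Genes for the maturation of LRP5 and LRP6 and for the complex that assembles on their tails had a median of 0.00 over 17 measured of 19 listed. TMEM198, a membrane protein that promotes LRP6 phosphorylation, had -0.22 (SE 0.09; limma adjusted p = 0.534), and -0.12 without Mock 2. For 5 genes of DKK1 binding or receptor uptake, among them the DKK1 receptor CKAP4, the median was 0.07, and 0 had an unadjusted p under 0.05 or passed in limma.

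LRP5 and LRP6 belong to the LDL receptor family. Its 12 other measured members had a median of 0.02, and 8 of them were above 0. VLDLR, a receptor of lipoproteins and reelin, had 0.18 (SE 0.05; limma adjusted p = 0.462) and the sorting receptor SORL1 had 0.14 (SE 0.05; limma adjusted p = 0.485). In 17 measured beta-catenin targets, DKK1 and DKK4 left out, the median was -0.01 and 0 passed in limma, while 4 had an unadjusted p under 0.05, against 9.23% of all probe sets. These ran both ways, with NOTUM and LGR5 below 0 and, named after their values were seen, CD44 (0.13) and EPHB3 (0.12) above it. Groups without overlap were found for 6 of these 17 targets and for 7 of 17 genes of LRP5 and LRP6 maturation and assembly, in both directions. The other lists had 2 of 12 (Wnt antagonists), 2 of 9 (R-spondin genes), 0 of 10 (Frizzled receptors), 2 of 5 (DKK1 binding or uptake) and 4 of 12 (LDL receptor family). The share over all probe sets was 16.5%.

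**Figure D4:**
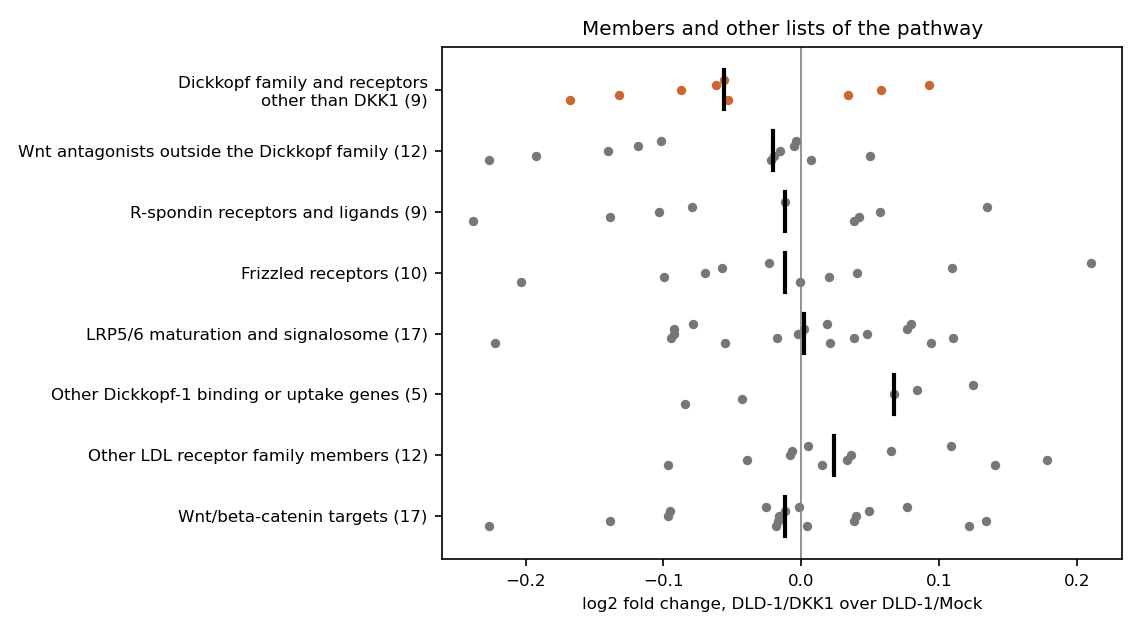
Horizontal axis, log2 fold change in the presence of the transgene for the members other than DKK1 and for each probe set of 7 other lists of the pathway, with points for probe sets, a bar for the median and the number of probe sets in brackets. All points lie between -0.24 and 0.21, and none passed an adjusted p of 0.05.

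The array profile of DKK1 was followed most closely by CST1, a secreted cysteine protease inhibitor, with a Pearson r of 0.997 over the 6 arrays. REPS2, a protein of endocytosis (0.995), and METTL21A, a protein methyltransferase (0.994), came next. IQGAP2 (-0.999), C3 (-0.999) and RAC2 (-0.996) ran most nearly opposite to it. Of these genes METTL21A alone did not pass (log2 fold change 0.14, limma adjusted p = 0.398). The rest had limma adjusted p values of 0.00712 (C3) to 0.0259 (REPS2). With 3 arrays on each of a pair of levels, such an r describes mainly the step between the groups, and it is given as an order of likeness without a test. No member of the family was among these genes.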

How the data were processed

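RNA was labelled with biotin and hybridised to Affymetrix Human Gene 1.0 ST arrays. The deposited log2 values are robust multichip averages that the authors computed in R with affy, and the quantile step of this method would remove a shift shared by most transcripts. The versions of those tools are not given in the sources used here, and no further normalisation was applied. Of 32321 probe sets, 19158 had 1 gene symbol, 1388 several and 11775 none. Symbols were updated through gene numbers to a GRCh38.p14 gene table (19128 matched).

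The comparison of DLD-1/DKK1 against DLD-1/Mock used limma 3.58.1 (lmFit, eBayes) in R 4.3.3 on the whole table, with 4 residual and 2.56 prior degrees of freedom and Benjamini-Hochberg adjustment over the table. Groups came from the sample titles. Single values had an exact permutation test (scipy 1.17.1). The methods call the dishes independent but not how many transductions they stem from, so p-values reflect only variation among dishes. The number of arrays limits the precision. The fit was tested on simulated data. Figures used matplotlib 3.10.9.

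The members and lists were chosen with earlier results of these data known. Named were all members, up to 2 genes a pathway list with the smallest unadjusted p if under 0.05, any list gene that passed, the brightest gene of a cell type list, the neighbours of DKK1 and the 3 genes most like and most unlike it. Genes marked as named after their values were seen fall outside this rule, as do GPA33, KRT20, CKAP4 and MICAL2. Alternatives were other normalisations, filters, priors, array weights, a replicate block and each array left out. A planned comparison of protein sequences was not run, and promoter windows were used for 3 members.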

Additional observations from a re-analysis of the deposited data

How the results depend on the processing

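All alternatives were planned, except that arrays were left out for genes outside the family after the data were seen. DKK1 kept its call in 14 of 15, with adjusted p values of 2.68e-06 to 0.0646 in limma, and lost it without moderation of the variances (7.05, adjusted p = 0.0646 with limma), which left 0 member probe sets past the threshold. With an array left out its log2 fold change ran from 6.91 to 7.27 and 1 member probe set passed each time. No other member passed in any alternative. Their signs held except in 3 cases with an array left out. KREMEN1 ran from -0.1148 to 0.0323 and DKK2 from -0.1074 to 0.0105, both positive without Mock 2, and DKK4 ran from -0.0027 without the first DLD-1/DKK1 array to 0.0676. LRP6 ran from 0.07 with cyclic loess to 0.15 with median centring, and its adjusted p from 0.366 to 0.861 in limma. Its unadjusted p was under 0.05 in 6 of 15 alternatives.

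The count over all probe sets, 28, was 17 with median centring (10 higher, 7 lower), 66 above the median brightness, 100 with single-gene probe sets only (52 higher, 48 lower), 53 under a robust prior with a trend, 59 with array weights, 1 without moderation and 2 to 6 with an array left out. The causes were not tested, and the fits with an array left out also had fewer arrays. With the replicate number as a block, 1 probe set passed, which was DKK1 (7.05, adjusted p = 0.00498 with limma). Deviations of same-numbered arrays from their group means correlated at 0.10, 0.01 and -0.14, and those of differently numbered arrays at -0.23 to 0.23. With 3 arrays centred in each group these values are bound to one another, so they cannot decide whether the shared numbers pair the arrays.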

Other observations

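The genes on either side of DKK1 in the gene table, PRKG1 and MBL2, which the viral copy does not carry, were dim in both groups. PRKG1, a cGMP-dependent kinase, had means of 4.46 in DLD-1/Mock and 4.43 in DLD-1/DKK1, and MBL2, a lectin of complement activation, had 5.45 and 5.44. Over the 18 nearest measured protein-coding neighbours of all members, log2 fold changes ran from -0.12 to 0.16, with a median of 0.01. With limma 0 of them passed an adjusted p of 0.05, and 4 had an unadjusted p under 0.05, against 9.23% of all probe sets. These were AIMP1, PAPSS1, USP47 and BCL2L14, named after their values were seen, all higher in DLD-1/DKK1 (log2 fold changes of 0.11 to 0.16). Their groups did not overlap, nor did those of the neighbour MICAL2 (0.07), against 16.5% of all probe sets without overlap.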
